A study of Vitis vinifera with 3 samples.

Results

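The 225 gene models described here changed in every cytosine context of a berry methylome. A gene model was taken when it was shorter than 40 kb, lay on a numbered chromosome, and was named in the CG, CHG and CHH tables of differentially methylated regions of the same pair of stages (H stands for A, C or T). The members were thus chosen by listing alone, that is, by the levels that made a region differ. They are 225 of 9252 gene models under 40 kb on numbered chromosomes, and of 9490 gene models named in any table. Of those 9252, 2038 others were named in at most 2 contexts of any pair and 6989 in at most 1. All regions that name a member were then used, which gave 475 CG, 644 CHG and 2414 CHH regions, or 3533 in all.

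Berries of the grapevine Vitis vinifera, cultivar Fujiminori, were sampled in the first growth stage 40 days after flowering, at véraison after 65 days, when berries soften and colour, and at maturity after 90 days. Whole-genome bisulfite sequencing, in which unmethylated cytosines are read as thymine, gave 1 library per stage. The labels describe pooling of berries for RNA and not for the DNA used here. With no replicate library there was no test between stages, so "higher" and "lower" below compare 2 libraries, and each level is an average over all cells of the fruit, in which a changed mix of cell types and a change within cells cannot be told apart.

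In plants the 3 contexts are kept by different enzymes. Methylation of CG is copied at each cell division by the MET1 type of methyltransferase, that of CHG is kept by chromomethylases in a loop with histone methylation, and that of CHH has to be set anew, by chromomethylases or by a pathway guided by small RNAs. Gene bodies commonly carry CG methylation alone, while transposon sequences, which may lie within introns, commonly carry all 3. The identifiers of the gene models matched 0 of the 29591 genes in the reference list, so no gene names or functions can be given, and exons and introns were not analysed here. Places are given by the coordinates of the authors' tables, of unstated build.

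How regions came to be listed limits what can be seen. In all 377997 regions of the 9 tables, the higher of both levels was at least 2 times the lower one once rounding to 1 percentage point is allowed for. No region had both levels above 50%. A region above 50% in the earlier library could therefore only be listed as lower in the later one, and a difference such as that between 60% and 90% could not be listed at all. In the plot of levels this leaves an empty wedge on both sides of the diagonal. Among the 3533 member regions the lower level was 0% in 248.

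**Figure D1:**
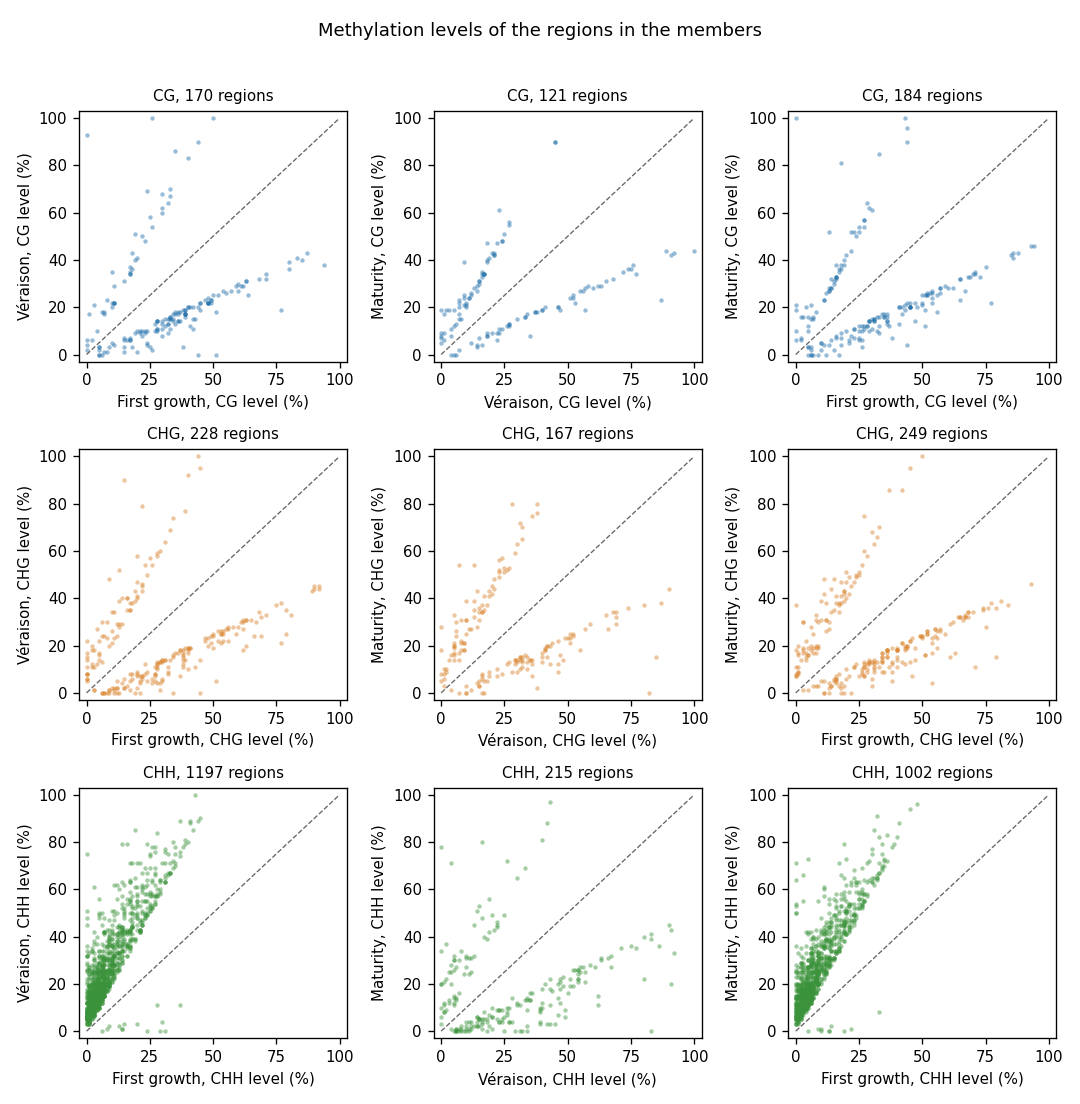
Methylation level (%) of each member region in the earlier stage (horizontal axis) and the later stage (vertical axis), with 1 panel per context and pair of stages and 1 point per region. CHH points lie above the diagonal for both pairs with first growth, where 98.8% and 99.0% of regions were higher later, and no point lies in the wedge around the diagonal.

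The rule was met by 119 gene models between first growth and véraison, which is 1.76% of the 6773 named in any context of that pair. Between véraison and maturity 33 met it (0.807% of 4089), and between first growth and maturity 120 did (1.84% of 6521). The count for each pair was used to choose the members and is no finding. Of the 225 members, 181 met the rule in 1 pair, 41 in 2 pairs and 3 in all 3 pairs. The number of regions per member ranged from 3 to 86, with a median of 11 and quartiles of 7 and 17. The most, 86, lay in an 18311 bp gene model on chromosome 14 (5312595 to 5330905), and 82 of them were CHH regions. Regions of one table can overlap each other, as 768 of the 3533 member regions did (21.7%), so they are not independent measurements.

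In the members, CHH levels at véraison exceeded those of first growth almost throughout. Of 1197 CHH regions, 1183 were higher (98.8%, exact interval 98.0 to 99.4%), and median levels were 5% in the earlier and 21% in the later library. The interval here and below is an exact Clopper-Pearson 95% interval that covers counting error over regions only. Over all gene models under 40 kb, 99.3% of CHH regions of that pair were higher, so the members did not stand out in this respect. CG levels went mostly the other way: 45 of 170 regions were higher at véraison (26.5%, interval 20.0 to 33.8%), against a background of 22%. CG medians were 31% in the first growth library and 17.5% in the véraison library, and the median difference was -17 percentage points. CHG resembled CG, with 76 of 228 regions higher (33.3%, 27.2 to 39.9%; background 36%) and medians of 27% and 18%.

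Maturity set against first growth, which uses the same first growth library, gave similar values in the members. Here 992 of 1002 CHH regions were higher at maturity (99.0%, 98.2 to 99.5%; background 99.1%), and the medians were 6% and 22%. Of 184 CG regions, 59 were higher (32.1%, 25.4 to 39.3%; background 25.7%), with medians of 27.5% and 20%. Of 249 CHG regions, 89 were higher (35.7%, 29.8 to 42.0%; background 32.6%), with medians of 27% and 18%. Both first growth comparisons thus showed the members with CHH higher and CG and CHG mostly lower in the later library.

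Between véraison and maturity no context went nearly all one way. CHH was mostly lower at maturity, with 66 of 215 regions higher (30.7%, 24.6 to 37.3%; background 32%) and medians of 22% at véraison and 13% at maturity. CG was split, with 61 of 121 regions higher (50.4%, 41.2 to 59.6%; background 54.3%) and medians of 20% and 22%. CHG was split too, with 79 of 167 regions higher (47.3%, 39.5 to 55.2%; background 47%) and medians of 23% and 19%. In each of the 9 tables the interval of the members' share held the background share, which includes the members' own regions. With the members left out this did not hold for CG at maturity against first growth. There 24.7% of regions in the other gene models were higher, just below the members' interval of 25.4 to 39.3%.

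Within single gene models the contexts combined in a few ways. Of the 119 members of véraison against first growth, 105 had all regions of each context going one way. In 65 of them (54.6% of 119) CG and CHG were lower and CHH higher at véraison. Median levels in these were 36% and 15% for CG, 30.5% and 12% for CHG, and 5% and 21% for CHH, the first growth level coming first. In 20 others (16.8%) all 3 contexts were higher, with medians of 17% and 35% for CG, 16.5% and 36.5% for CHG, and 5% and 18% for CHH. In 13 CG was lower while CHG and CHH were higher, and here CHG had medians of 8.5% and 23.5%. Only 2 members were lower in all 3 contexts, and 5 had higher CG with lower CHG. Over all gene models under 40 kb, 22% of CG, 36% of CHG and 99.3% of CHH regions of this pair were higher. Lower CG, lower CHG and higher CHH were thus the usual directions of listed regions, and the leading pattern is no trait of the members.

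The same order of patterns held for the 120 members of maturity against first growth. In 55 (45.8%) CG and CHG were lower and CHH higher, and in 21 (17.5%) all 3 contexts were higher. Medians of the former were 37.5% and 17% for CG, 40% and 15% for CHG, and 7% and 25% for CHH. Those of the latter were 16% and 35%, 12% and 34%, and 4% and 16%. In 13 CG alone was lower, in 8 CHG alone was lower, in 3 all contexts were lower, and 20 were mixed within a context. Over all gene models under 40 kb, 25.7% of CG, 32.6% of CHG and 99.1% of CHH regions of this pair were higher.

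Among the 33 members of maturity against véraison the most frequent pattern was a lower level in all 3 contexts, in 11 (33.3%). Their median levels were 38% at véraison and 18% at maturity for CG, 38% and 12% for CHG, and 35.5% and 4.5% for CHH. In 5 others CG and CHG were higher and CHH lower, with medians of 22.5% and 45.5%, 7% and 29.5%, and 61% and 27%. One member was higher in all 3 contexts, and 11 were mixed within a context. Over all gene models under 40 kb, 54.3% of CG, 47% of CHG and 32% of CHH regions of this pair were higher.

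**Figure D2:**
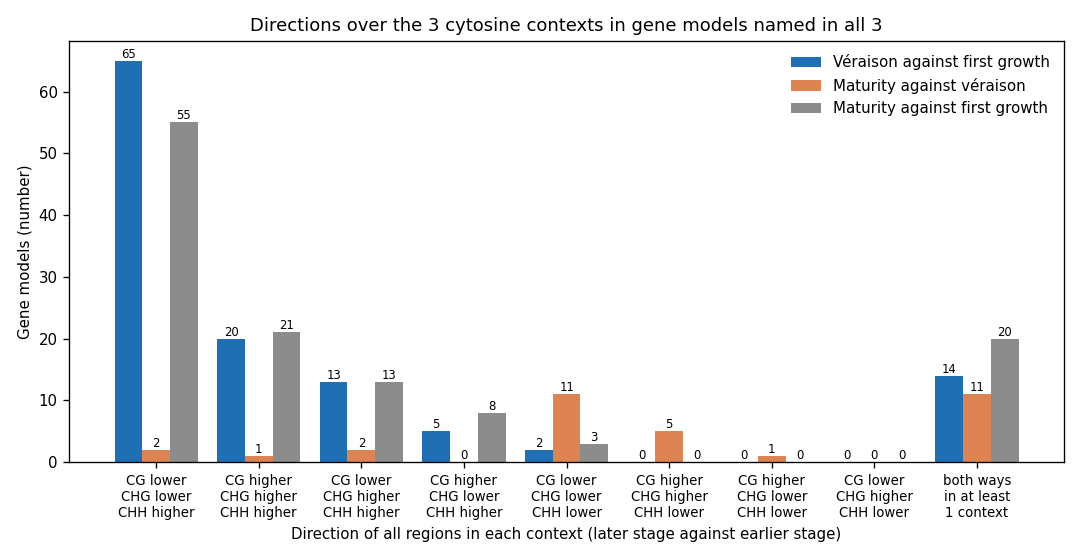
Number of members (vertical axis) by the direction of all their regions in CG, CHG and CHH (horizontal axis), with a bar for each pair of stages and the number above it. Lower CG and CHG with higher CHH is the tallest group of both pairs with first growth, with 65 and 55 gene models, and lower in all 3 contexts leads the directional groups between véraison and maturity, with 11.

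CG and CHG went the same way in most members. Where all regions of each context went one way, the direction was shared in 89 of 108 members at véraison against first growth (82.4%), in 22 of 29 at maturity against véraison (75.9%) and in 81 of 102 at maturity against first growth (79.4%). Gene models named in exactly 2 contexts, CG and CHG, gave 82.4%, 84.2% and 84.3%. CG and CHH shared the direction in 28.7% of members at véraison against first growth and in 32.4% at maturity against first growth. For CHG and CHH it was 34.0% and 38.5%. Nearly all CHH regions were higher in these pairs. With exactly those 2 contexts, gene models gave 21.4% and 22.1% for CG and CHH, and 40.8% and 31.8% for CHG and CHH. Only the 22.1% lay outside the members' interval, 23.9 to 42.0%, and the difference was not tested. Between véraison and maturity, where CHH went both ways, CG and CHH shared the direction in 13 of 23 members (56.5%, 34.5 to 76.8%). CHG and CHH shared it in 15 of 24 (62.5%, 40.6 to 81.2%). Gene models named in exactly those 2 contexts gave 48.4% and 49.5% there, within both intervals.

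The shared direction of CG and CHG was most frequent where their regions lay at the same place. In the members of the first pair of stages, a CHG region shared at least 1 bp with 66 of 141 CG regions (46.8%), and 64 of these 66 had the direction of their CHG region (97.0%, interval 89.5 to 99.6%). At maturity against véraison it was 28 of 29 (96.6%), and at maturity against first growth 79 of 80 (98.8%). The members did not stand out in this, as overlapping regions of gene models named in 2 contexts gave 99.1%, 97.9% and 99.2%. In those models 64.6%, 67.5% and 60.2% of CG regions overlapped a CHG region, against 46.8%, 61.7% and 52.3% in members. Where the nearest CHG region did not overlap, the direction was shared by 54 of 75 CG regions (72.0%, 60.4 to 81.8%), 9 of 18 (50%) and 44 of 73 (60.3%, 48.1 to 71.5%). The shares of higher regions alone, multiplied out as if both contexts were independent, give 57.3%, 50% and 53.4% for these.

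Apart from one another, then, CG and CHG regions of the same member shared a direction about as often as not between véraison and maturity, and more often at véraison against first growth. In gene models named in exactly 2 contexts, CG regions apart from their CHG region shared its direction in 46.0%, 49.3% and 50% of cases. The 72.0% of the members did not fall off with distance: it was 8 of 11 up to 500 bp, 15 of 20 from there to 2000 bp, and 31 of 44 beyond. For CG regions that overlapped no CHG region, the median gap to the nearest one was 2701, 2487.5 and 2091 bp in the 3 pairs, and 687, 716 and 1456.5 bp in 2-context models. The difference between members and 2-context models was not tested.

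**Figure D3:**
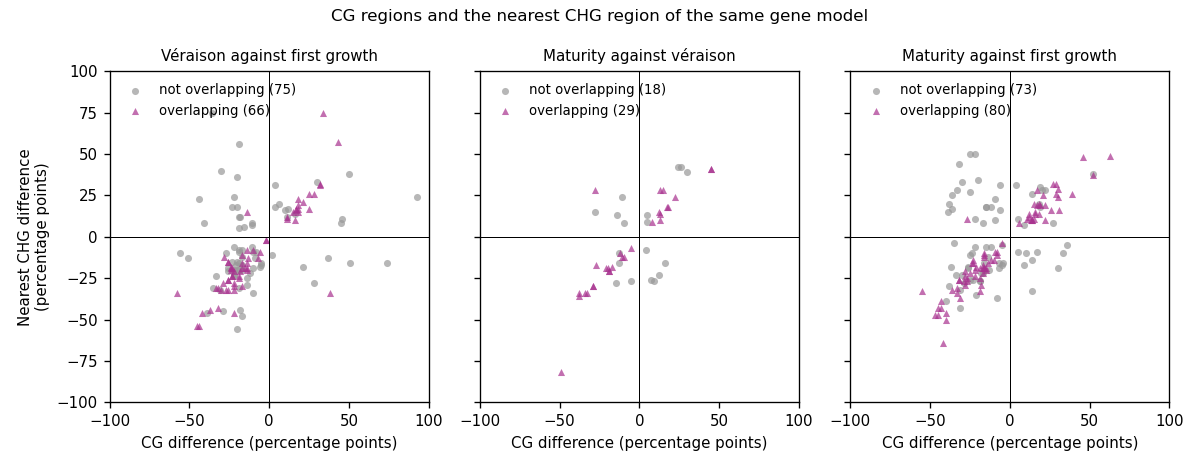
Difference of each CG region of a member (horizontal axis, percentage points, later minus earlier stage) and of the nearest CHG region in the same gene model (vertical axis, same unit), for each pair of stages. Triangles are overlapping regions, of which 64 of 66, 28 of 29 and 79 of 80 show the same sign on both axes, and circles are regions that do not overlap.

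Few CG or CHG regions of the members overlapped a CHH region, and gene models named in 2 contexts were similar in this. In members of véraison against first growth, 16 of 141 CG regions (11.3%) and 12 of 177 CHG regions (6.78%) overlapped a CHH region, and 21 of 638 CHH regions (3.29%) overlapped a CG region. At maturity against first growth 23 of 153 CG regions (15.0%) did so, and at maturity against véraison 4 of 47 (8.51%). In gene models named in 2 contexts, CG regions overlapped a CHH region in 15.6%, 16.0% and 7.69% of cases for these pairs in turn. Their CHG regions did so in 6.05% at véraison against first growth. CHH regions overlapped a CG region less often in members there, 3.29% (2.05 to 4.99%) against 6.15%. At maturity against first growth the shares were 4.51% and 6.60%, and at maturity against véraison 4.69% and 8.33%. These differences were not tested. Of the 16 CG regions that overlapped a CHH region at véraison against first growth, 2 had its direction. At maturity against first growth 8 of 23 had it. The shares of higher regions alone give 11.7% for the 16 and 28.7% for the 23. Between véraison and maturity the direction was shared by 4 of 4 overlapping CG regions, 11 of 14 within 500 bp, 9 of 16 from there to 2000 bp and 3 of 13 beyond. The shares of higher regions alone give 100%, 70.4%, 48.4% and 39.6% for these, so the 4 of 4 was fixed by them, and they decline with distance too.

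Regions of all 3 contexts were often not close together within a member. The gap that has to be bridged to touch a region of each context had a median of 1716 bp in members of véraison against first growth, and it was at most 500 bp in 26 of 119 and over 2000 bp in 57. The longest was 28809 bp. Medians were 1541 bp between véraison and maturity and 1466 bp between first growth and maturity.

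In 13 members regions of all 3 contexts overlapped at one place. They were picked out after their values were seen, and some examples follow. On chromosome 6, the shortest member (1091784 to 1092561, 778 bp) had CG at 26% at first growth and 2% at véraison, CHG at 20% and 2%, and CHH at 14% and 1%. At maturity its CG was at 3%, its CHG at 3% and its CHH at 0%, so both later libraries were near 0 in these regions. Between véraison and maturity, however, a CHH region of this gene model was listed at 1% and 8%. The next member on that chromosome (1094441 to 1095250) starts 1880 bp after it and had CG at 10% and 2%, CHG at 13% and 2%, and CHH between 9% and 14% at first growth and between 1% and 2% at maturity. These neighbours are among the few members in which CHH was lower than at first growth.

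Other places of this kind combined opposite directions. On chromosome 6 (gene model 7476208 to 7478569) CG stood at 33% at first growth and 15% at véraison and CHG at 40% and 19%. An overlapping CHH region was at 20% and 55%. On chromosome 4 (3241702 to 3245692) CG was at 55% and 26%, CHG at 53% and 25%, and CHH at 1% and 12%. At maturity, a place on chromosome 13 (6593309 to 6603253) had CG at 26% against 53% at first growth, CHG at 23% against 50%, and CHH at 29% against 7%. In these 3 gene models CG and CHG were lower by similar amounts in regions that overlapped a region of higher CHH. On chromosome 6 the overlap was small, as the CHG region ended at 7478117 and the CHH region ran from 7478103 to 7478356.

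All 3 contexts were higher together at one place in each of 3 members. On chromosome 15 (17005384 to 17007131) CG stood at 17% at first growth and 35% at véraison, CHG at 22% and 45%, and CHH at 1% and 10%. On chromosome 11 (10264848 to 10266092) CG stood at 20% at first growth and 42% at maturity, CHG at 9% and 19%, and CHH at 1% and 5%. On chromosome 4 (7278047 to 7279719) CG and CHG were both at 5% at first growth and 16% at maturity, and CHH at 0% and 5%. Later levels in these gene models stayed below 50% in every context.

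Places lower in all 3 contexts, besides those on chromosome 6, lay on chromosomes 12, 17 and 9. On chromosome 12 (6865057 to 6866746) CG was at 63% at véraison and 29% at maturity, CHG at 46% and 12%, and CHH at 24% and 4%. On chromosome 17 (9308934 to 9314042) CG was at 14% and 4% between the same stages, CHG at 15% and 3%, and CHH at 9% and 0%. On chromosome 9 (22125467 to 22133940) CG was 25% at first growth against 7% at maturity, CHG 40% against 11%, and CHH 19% against 0%. Elsewhere this last gene model had higher CHH at maturity: 8 of its 9 CHH regions of that pair were higher and 1 lower.

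The 3 members that met the rule in every pair of stages differ in how their regions are spread. The first, VIT_01s0010g03460.t01 on chromosome 1 (20795340 to 20819228, plus strand, 23889 bp), had 80 regions. CG was at 48% and 36% at first growth and at 22% and 14% at véraison in its 2 CG regions. All 29 CHH regions were higher at véraison, with medians of 7% and 22%, and all 37 were higher at maturity, with medians of 8% and 25%. One of them, from 20809333 to 20809632, was at 16% in the earlier and 41% in the later library of the first pair (p = 4.94308e-75 in the authors' deposited table). Its CHG regions went both ways, for instance from 38% to 17% and from 9% to 20%. Between véraison and maturity CG was at 22% and 9%, CHG at 19% and 9%, and CHH at 0% and 78% in one region but at 17% and 5% in another.

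An 18438 bp gene model on chromosome 4 (20426687 to 20445124) had 41 regions. Its CHH regions were higher than at first growth in 19 of 19 cases at véraison and in 11 of 11 at maturity, up to 27% and 66% in one of them. Its CG was at 37% and 14% in one region of the first pair, and its CHG at 34% and 15%. Between véraison and maturity the contexts parted, with CG at 10% and 22%, CHG at 44% and 21%, and CHH at 13% and 45% in one region and 71% and 35% in another. The member before it on the chromosome (20407497 to 20425854) ends 833 bp before its start and had 61 regions, 58 of them CHH.

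In the third, VIT_04s0023g02560.t01 on chromosome 4 (19116412 to 19130641, 14230 bp), CG was highest at maturity near the 5′ end. In regions between 19116699 and 19117189 CG was at 16% or 17% in the earlier library and at 33% to 36% at maturity, against véraison and first growth alike. CHG there was at 16% at véraison and 34% at maturity, and at 12% at first growth and 31% at maturity. A CG region of 122 bp within that stretch (19116747 to 19116868) was nevertheless at 33% at first growth and 16% at véraison, so first growth levels of 16%, 17% and 33% were listed for neighbouring or overlapping bases. CHH further along stood at 18% at first growth and 50% at véraison, and at 26% and 58% for maturity.

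**Figure D4:**
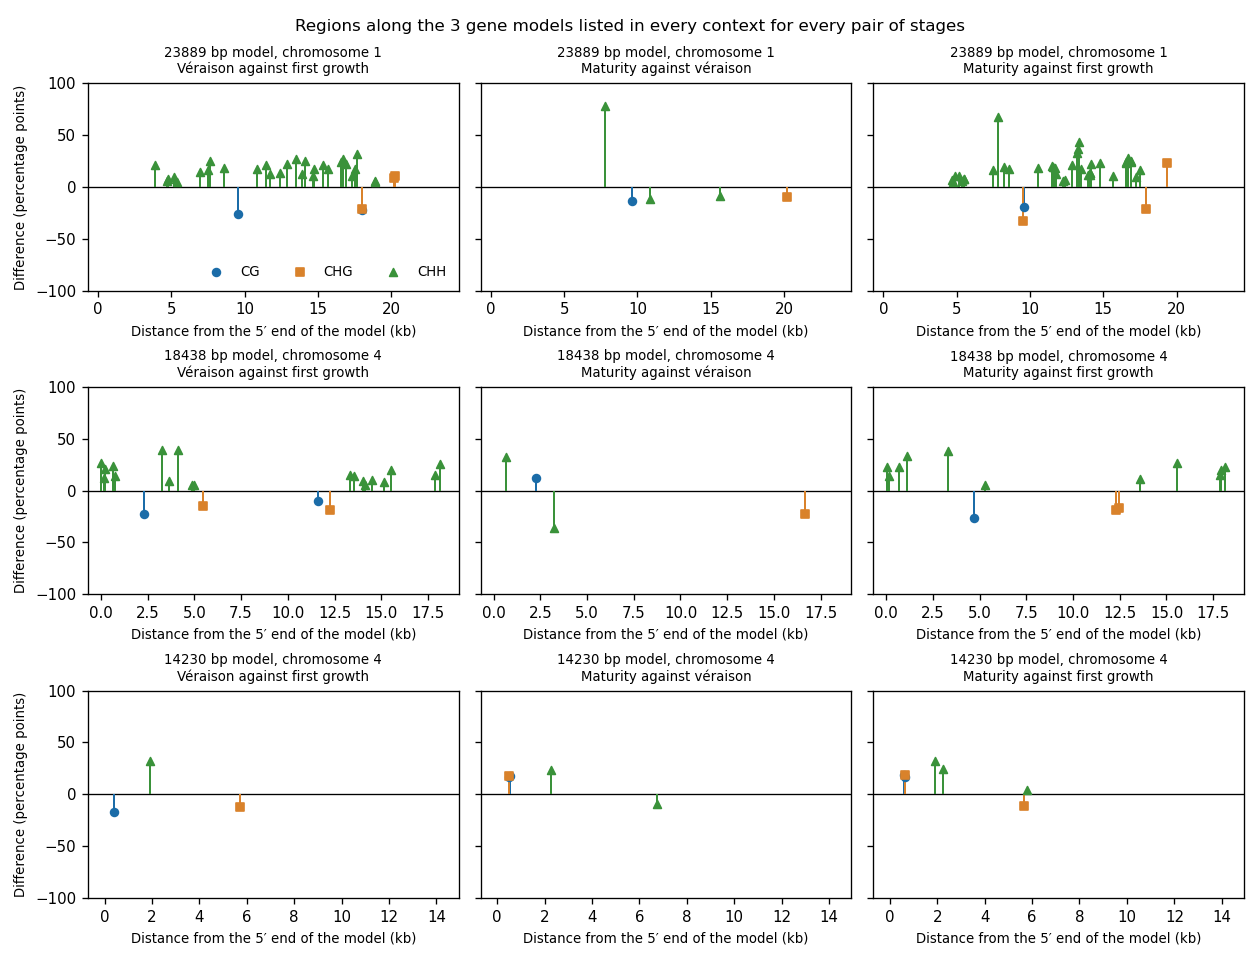
Difference in methylation (vertical axis, percentage points, later minus earlier stage) of each region along the 3 gene models that met the rule in every pair of stages (horizontal axis, distance of the region's midpoint from the 5′ end in kb). Circles are CG, squares CHG and triangles CHH. In the 2 pairs with first growth every CHH triangle lies above 0, while between véraison and maturity CHH points lie on both sides.

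The members with the largest differences, ranked by the smallest of the largest absolute differences of their 3 contexts, were headed at véraison against first growth by VIT_08s0007g08850.t01 on chromosome 8 (22212685 to 22221515, 8831 bp). A CG region from 22214194 to 22214613 stood at 83% and then 41% (p = 1.1072e-18 in the authors' deposited table), and 2 CHG regions inside it went from 90% to 44% and from 92% to 44%. A CHH region on the same stretch, from 22214515 to 22214565, was at 0% and 51%. Further on, CHH from 22218588 to 22218965 stood at 21% and then 71% (p = 6.66533e-51 in the authors' deposited table). At maturity CG was at 41% against 86% at first growth from 22214194 to 22214688.

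The CHG values of this gene model show how far a level depends on the bases included. CHG between 22214482 and 22214610 stood at 84%, 80% and 37% in the 3 libraries in order of age. The shorter CHG regions just before it, which end by 22214463, were at 44% at véraison. At véraison the level thus differed between neighbouring sets of CHG sites, and no maturity level is listed for the earlier set.

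VIT_14s0060g02480.t01 on chromosome 14 (2129795 to 2148385) stood out by higher CG and CHG at véraison. CG from 2139002 to 2139278 stood at 40% at first growth and 83% at véraison, and CHG from 2139085 to 2139281 at 22% and 79%. At maturity CHG from 2139095 to 2139146 was at 44%, against 90% at véraison, and from 2139095 to 2139139 it was at 47%, against 18% at first growth. CHG at this place was thus highest at véraison and between the other 2 stages' levels at maturity. CHH at another place in the gene model, from 2132612 to 2132744, stood at 14% at first growth and 54% at véraison.

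A gene model on chromosome 18 (9714080 to 9725445) was likewise highest at véraison near its 3′ end, and it led the ranking for maturity against véraison. CG from 9714241 to 9714520 stood at 33% at first growth and 67% at véraison, and CHG from 9714298 to 9714371 at 15% and 90%. At maturity CG from 9714217 to 9714401 was at 42%, against 91% at véraison, and CHG from 9714295 to 9714371 was at 0%, against 82%. For maturity against first growth no CHG region of this gene model was listed. Its CHG levels of 15% and 0% thus come from regions with different limits. The véraison CHG level was 90% in the 74 bp region and 82% in the 77 bp region that contains it. A few added bases moved a level by 8 percentage points here, and the reads behind it are not known.

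The opposite course, lowest at véraison, was seen for CG on chromosome 12 (gene model 5106280 to 5115115). CG from 5110994 to 5111075 stood at 64% at first growth and 25% at véraison, and from 5110986 to 5111075 it was at 23% at véraison and 61% at maturity. CHG nearby, from 5111193 to 5111287, was at 89% and 43% at first growth and véraison. Another gene model on chromosome 12 (19629696 to 19638518) had CG at 49% and 23% at first growth and véraison, and at 25% and 51% at véraison and maturity, in regions between 19630478 and 19630596. At another place in it, from 19634900 to 19635333, CG was 48% at first growth against 20% at maturity, with no véraison level listed. Elsewhere in this gene model CHG was at 38% and 80% and CHH at 80% and 22% between véraison and maturity.

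A second gene model on chromosome 18 (10435490 to 10445249) was lower in every context at maturity than at véraison. CG from 10440916 to 10441592 was at 57% and 19%, CHG from 10441028 to 10441134 at 38% and 2%, and CHH from 10441383 to 10441447 at 83% and 0%. At first growth CHH from 10441391 to 10441494 was at 11%, against 62% at véraison. However, CHH just beyond, from 10441535 to 10441667, stood at 26% at first growth and 53% at maturity. CHH within this gene model was therefore lower at maturity than at véraison in one stretch and higher than at first growth in the next.

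On chromosome 1 (8307055 to 8312598) and chromosome 16 (16555715 to 16557501) CG and CHG were higher at maturity than at véraison. On chromosome 1 CG was at 21% and 43%, CHG at 17% and 41%, and CHH was lower, at 59% and 28%. On chromosome 16 CG was at 9% and 39%, CHG at 36% and 75%, and 3 CHH regions were higher, from 1% to 3% at véraison to 21% to 25% at maturity.

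For maturity against first growth, further members with large differences lay on chromosomes 9, 17 and 14. On chromosome 9 (3004166 to 3012627) CG was at 69% and 33%, CHG at 51% and 16%, and CHH at 0% and 53%. On chromosome 17 (3719749 to 3728204) CG was at 51% and 19% but CHG at 42% and 86%. The 31884 bp gene model on chromosome 14 (5138534 to 5170417) had CG at 38% and 7% and CHG at 45% and 13%. On chromosome 12 (5442730 to 5449823) CG was at 62% and 29% at véraison against first growth, and CHH from 5445397 to 5445555 at 31% and 76%.

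Some member regions had identical limits in both tables that share the first growth library, so that levels of all 3 stages could be read. Regions kept in this way tend to be those with similar levels in both later libraries. Medians of 18 such CG regions were 29%, 20.5% and 22% in order of stage. Both later stages were lower in 12 and higher in 6 of them, and in 16 the later libraries lay no more than 5 percentage points apart. In 10 CHG regions the medians were 41.5%, 16% and 16%, and in 15 CHH regions 4%, 16% and 18%, with all 15 higher in both later stages.

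In 4 members both CG and CHG could be followed in this way. On chromosome 19 (473428 to 478067) CG from 474148 to 474813 was at 77%, 19% and 22%, CHG from 474198 to 474566 at 56%, 22% and 23%, and CHH from 476138 to 476278 at 22%, 60% and 62%. On chromosome 15 (20108852 to 20114144) CG was at 85%, 40% and 42% and CHG at 79%, 25% and 36%. On chromosome 14 (943303 to 955145) CG was at 32%, 9% and 10% and CHG at 30%, 6% and 6%. In the 31884 bp gene model on that chromosome named above, CG was at 38%, 3% and 7% and CHG, at another place, at 45%, 14% and 13%. In all 4 both contexts were lower in both later libraries. Higher in both later libraries were, among others, CG at 0%, 93% and 100% on chromosome 14 (24867441 to 24867735), CG at 44%, 90% and 96% on chromosome 11 (17167224 to 17167275) and CHG at 45%, 95% and 95% on chromosome 17 (8016025 to 8016066).

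The members were longer than other listed gene models, with a median of 9886 bp (quartiles 5143 and 15962) against 5693 bp (2726 and 11083). A longer gene model can hold more regions and so meets the rule more easily. The share of listed gene models that were members was 0.819% under 2.5 kb (17 of 2075), 2.48% from 5 to 10 kb (60 of 2420) and 4.68% from 20 to 40 kb (37 of 790). Gene models named in 2 contexts of a pair but in 3 of none were as long as the members, with a median of 9899 bp. Those named in no more than 1 context of any pair had a median of 4904 bp. The median number of CHH regions per kb was 0.314 in members and 0.330 in other gene models with CHH regions at véraison against first growth. It was 0.282 and 0.295 at maturity against first growth, but 0.185 and 0.168 at maturity against véraison.

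CG regions of members lay towards the 5′ end more often than those of other gene models in all 3 pairs of stages, and CHG regions in both pairs with first growth. At véraison against first growth, 48 of 136 CG midpoints within members (35.3%) fell in the first of 5 equal parts counted from the 5′ end, against 24.4% in other listed gene models. At maturity against first growth the shares were 33.3% and 25.0%, and at maturity against véraison 38.6% (17 of 44) and 28.4%. The interval of that 38.6%, 24.4 to 54.5%, held the 28.4%. For CHG they were 28.2% and 19.0% in the first of these pairs, and 26.1% and 18.2% in the second. At maturity against véraison CHG did not show this, with 18.6% (8 of 43) and 19.2%, and member CHG midpoints were most frequent in the last 2 parts, with 25.6% in each. CHH midpoints showed less of this, with 20.4% against 16.9% and 16.3% against 17.3% in the pairs with first growth. At maturity against véraison CHH went the other way, with 10.9% (7 of 64) against 20.7%. The CG regions in that first part were higher at véraison in 22.9% of cases and those in the remainder in 27.3%. These differences in place were not tested.

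**Figure D5:**
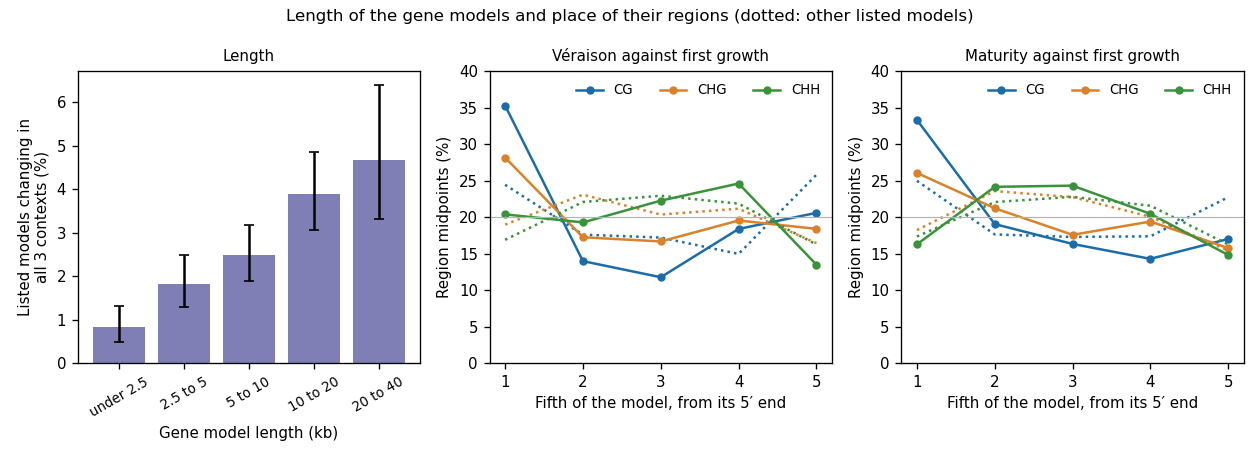
Left, share of listed gene models that are members (vertical axis, %) by length (horizontal axis, kb), with exact 95% intervals over gene models as bars. Middle and right, share of region midpoints (vertical axis, %) in 5 equal parts of the gene model from its 5′ end (horizontal axis). Solid lines are members in the pair that met the rule, and dotted lines are other listed gene models. CG in members starts at 35.3% and 33.3%.

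By chromosome, members made up between 1.36% of listed gene models (7 of 514, chromosome 7) and 3.61% (20 of 554, chromosome 12). Next neighbours among members within 20 kb occurred 7 times. The closest lie on chromosome 12, where a gene model on the plus strand (19857710 to 19873388) is followed after 317 bp by one on the minus strand (19873705 to 19884546). Both met the rule at maturity against first growth, and over all pairs of stages they had 24 and 17 CHH regions.

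At the length limit, the longest members were a 39465 bp gene model on chromosome 15 (12061750 to 12101214), with CG at 34% and 14% and CHG at 6% and 24% at first growth and véraison, and the 38885 bp gene model on chromosome 11 (17162761 to 17201645). The nearest ones outside it were 44154 bp long on chromosome 5 (13407908 to 13452061) and 44413 bp long on chromosome 19 (4110640 to 4155052), with 22 and 12 regions. Without the limit, 15 more gene models would have been members.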

How the data were processed

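Per the labels' protocols, genomic DNA was sheared, ligated to adaptors, bisulfite-converted and sequenced as read pairs. The submitters' processing notes name BSMAP 2.73, which aligns bisulfite-converted reads. How regions were called, any coverage filter, the build, the annotation and whether starts count from 0 or 1 were not given in the sources used. The authors deposited 9 tables, 1 per context and pair of stages, with each region's level in both libraries as a fraction, rounded to 0.01 and printed here in percent. The deposited p-values are headed as a chi-square statistic but are at most 0.0099982267, so they were read as p-values. No read counts are in the tables, so the depth is unknown and a level has no interval.

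The members and all choices of tests, lists and alternatives were made with earlier results of these data known. Members were found with Python 3.11.15, numpy 2.4.6, pandas 2.3.3 and scipy 1.17.1, and figures drawn with matplotlib 3.10.9. Scripts were tested on simulated data. Differences are later minus earlier stage, and no test was made between stages. Named are members meeting the rule in all 3 pairs, the 5 per pair with the largest smallest-context difference, and the 2 on each side of 40 kb. Examples of overlapping contexts, of levels over 3 stages, of neighbours and of most regions were chosen after their values were seen. Planned lists by gene description could not be used, as 0 member identifiers matched the reference list, and identifiers are printed for 4 members only. No sequences are shown, as no genome of the tables' build was used.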

Additional observations from a re-analysis of the deposited data

How the results depend on the processing

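Of 137 values recomputed under other settings, 116 were classed as close to those given and 21 as moved. The 0 classed as reversed says little, since a share could be so classed only where its interval excluded 50%. Member counts and overlaps could not be so classed at all. The CG share at maturity against véraison, 50.4% here, was 49.3% with each gene model counted once. Closeness was also wide for member counts, as 166 members under a stricter p-value limit, against 225, counted as close. Keeping the larger differences, at or above the table's median in size, left 28, 5 and 33 members for véraison against first growth, maturity against véraison and maturity against first growth, and 56 in any pair. Keeping regions of at least the median length left 25, 13 and 29, and 58 in any pair. A limit of 20 kb left 188 members.

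With the longer regions, the share higher in the later stage was 13.5% for CG at véraison against first growth, and 22.7% for CG and 29.5% for CHG at maturity against first growth. With the larger differences it was 37.0% for CG at maturity against véraison and 25% for CG at maturity against first growth. Counting each gene model once gave 96.9% for CHH at véraison and 97.8% at maturity against first growth. The share of members with one direction in CG and CHH was 9.52% with longer regions at véraison against first growth, and 23.3% with larger differences and 18.9% with longer regions at maturity against first growth. For CHG and CHH it was 20.5% with larger differences at véraison and 27.5% with longer regions at maturity against first growth. With a p-value limit 10 times stricter than each table's largest p, 60.9% of CG regions overlapped a CHG region at maturity against first growth. Fewer regions enter these settings by construction, and the cause of the other shifts was not tested. Joining overlapping regions of a table, an alternative chosen after seeing the data, moved none of the shares beyond their intervals.

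No paired analysis was possible because there is 1 library per stage. For the same reason every value describes 3 libraries, and intervals cover counting error over regions only. No coverage is given, so the reads behind levels near 0% or 100% in short regions are not known.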
